A study of Homo sapiens with 29 samples.

Results

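Expression of 7 cadherin genes that are often followed in melanoma (CDH1, CDH2, CDH3, CDH6, CDH11, CDH13 and CDH19) was described in WM239A cells, a human metastatic melanoma line, through 28 days of treatment with a BRAF inhibitor. The members were found by their symbols in the count table, 7 of 60675 listed genes. In short, CDH2 and CDH19 were the most abundant members in every group, CDH6, CDH11 and CDH13 were low in untreated BRAF-V600E cells and higher from day 7 on, CDH3 was highest at 20 hours, and CDH1 stayed close to absent.

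Polyadenylated RNA was sequenced in 29 libraries of 10 groups, with 3 libraries each except week 4 under continuous drug, which had 2. WM239A with an empty vector and WM239A overexpressing BRAF-V600E, a kinase mutant found in many melanomas, received no drug. All other groups were BRAF-V600E cells given LGX818 (encorafenib, a BRAF kinase inhibitor) at 500 nM. They were sampled at 20 hours and at 7 days (week 1), and then in a continuous arm at 14, 21 and 28 days (weeks 2, 3 and 4). An intermittent arm passed through 7 days of DMSO (week 2 off drug), 7 days of drug again (week 3 back on drug) and 7 further days of DMSO (week 4 off drug). All groups share 1 cell line, and no untreated cells were sampled late, so later weeks differ from untreated cells in culture time too. Whether replicate libraries derive from separate cultures is not given in the labels, and every p-value therefore measures the spread between these libraries, which may be technical. Cells were trypsinized and frozen before RNA was purified.

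Cadherins are calcium-dependent adhesion proteins of the cell surface. Classical cadherins bind like molecules on the neighbouring cell and hold catenins with their cytoplasmic tail, which link them to actin. The type I members here are CDH1 (E-cadherin, of epithelia and normal melanocytes), CDH2 (N-cadherin, of neural and mesenchymal cells) and CDH3 (P-cadherin). The type II members are CDH6 (K-cadherin), CDH11 (OB-cadherin, of mesenchyme and osteoblasts) and CDH19, found in the Schwann cell lineage. CDH13 (T-cadherin) is held in the membrane by a lipid anchor and lacks the tail that binds catenins, so the name classical cadherin does not strictly cover it. In melanocytes E-cadherin mediates contact with keratinocytes, and a shift from E- to N-cadherin is a known feature of melanoma.

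On GRCh38 with GENCODE 29, CDH1 (ENSG00000039068) lies on chromosome 16 at 68737225 to 68835548, CDH3 at 68636189 to 68722616, CDH11 at 64943753 to 65126112 and CDH13 at 82626803 to 83800640 of the same chromosome. CDH6 lies on chromosome 5 at 31193750 to 31329146. CDH2 and CDH19 are both on the minus strand of chromosome 18, at 27950966 to 28177446 and 66501083 to 66604138. Antisense genes overlap 11.1% of the merged exon bases of CDH3, 5.62% of CDH1, and smaller parts of CDH2, CDH6 and CDH13. A pseudogene on the same strand, DUX4L51, overlaps 8.96% of CDH6, and AC010533.1, also on the same strand, overlaps 1.9% of CDH11. Whether counting used strand is not given in the sources used here, so how reads in these stretches were counted is not known. CDH19 overlaps no other annotated exon.

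Promoters are shown for CDH2 and CDH19, the 2 most abundant members and the 2 of 7 matched in the table of RefSeq promoters used here (GRCh38.p14). It gave 3 promoters for them, each covering 250 bases before and 50 after a start site. The upstream CDH2 promoter (chr18:28177081-28177380, minus strand) and the CDH19 promoter (chr18:66604041-66604340, minus strand) are printed 5′ to 3′ with each CpG in capitals.
CDH2: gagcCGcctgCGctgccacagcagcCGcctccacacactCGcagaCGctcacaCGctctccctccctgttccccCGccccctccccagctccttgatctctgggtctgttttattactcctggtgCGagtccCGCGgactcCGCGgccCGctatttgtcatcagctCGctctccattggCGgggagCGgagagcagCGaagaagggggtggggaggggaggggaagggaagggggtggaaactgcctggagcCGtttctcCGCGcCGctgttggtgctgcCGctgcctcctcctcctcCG
CDH19: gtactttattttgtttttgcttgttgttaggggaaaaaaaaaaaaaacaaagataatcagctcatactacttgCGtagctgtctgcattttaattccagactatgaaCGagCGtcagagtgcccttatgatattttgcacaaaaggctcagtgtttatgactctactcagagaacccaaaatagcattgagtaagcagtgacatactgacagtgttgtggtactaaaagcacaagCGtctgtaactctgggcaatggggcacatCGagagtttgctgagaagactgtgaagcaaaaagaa
The CDH2 promoter held 67.0% G and C bases and 23 CpG, and 27.8% of 35116 promoters in the table had at least that GC content. The CDH19 promoter held 39.3% and 5 CpG, and 89.8% of promoters had at least that GC content. A further CDH2 promoter, at a downstream start (chr18:28036592-28036891, minus strand), held 40.7% and 4 CpG. Searched on both strands, 0 of the 3 held CAGGTG, an E-box bound by SNAI and ZEB factors, which 20.6% of all promoters held. Likewise, 0 of 3 held CATGTG or CACGTG, the sites bound by MITF, found in 11.1% and 7.26% of promoters.

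Libraries held 22.9 to 35.8 mega-counts, and TMM scaling factors ran from 0.916 to 1.05. Levels are given as CPM, the count divided by the TMM-scaled library size in mega-counts. The count table names the week 3 columns of the intermittent arm DrugOff, whereas the sample labels put them on drug. The labels were used, and DUSP6, an ERK-induced phosphatase, was there at 109 ± 7.75 CPM (SD, n = 3) against 658 ± 17.97 at week 2 off drug. BRAF was at 895 CPM in BRAF-V600E cells against 40.2 with the vector, and at 3232 and 3404 off drug at weeks 2 and 4. Replicate 3 of week 2 under continuous drug and replicate 1 of week 3 back on drug stood apart from both other libraries of their groups. Cadherin calls that changed without them are given both ways. Leaving out the week 2 library alone ended or added no cadherin call. SOX10 and S100B, 2 of 7 listed melanocyte markers, had group means of at least 129 and 99.4 CPM, with SOX10 up to 1083 in a library. The summed level of the 7 ranged from 8077 to 8232 CPM at 20 hours down to 317 to 362 CPM at week 2 under continuous drug. Against untreated cells 6 were higher and 0 lower at 20 hours, 0 and 5 at week 1, and 0 and 7 at week 2 off drug. Of all genes 28.4% were higher at 20 hours, and 26.7% and 28.8% were lower at week 1 and week 2 off drug. In bulk RNA, fewer cells expressing a gene and less RNA per cell cannot be told apart.

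**Figure D1:**
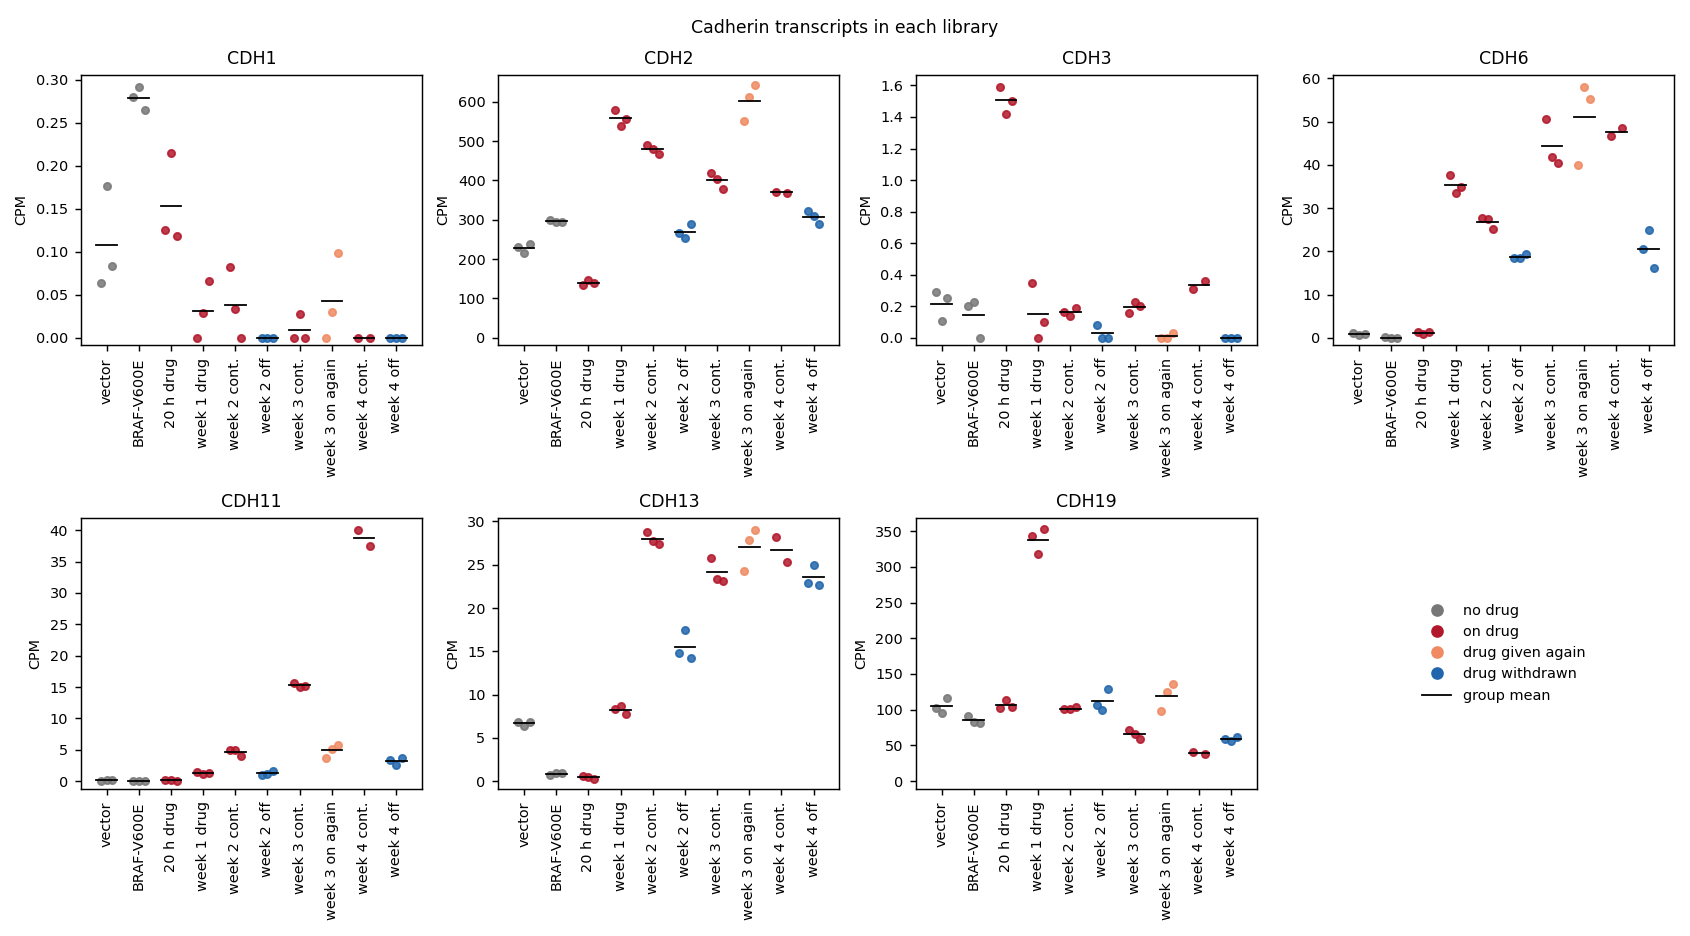
Level of each cadherin in every library, in CPM on a linear axis scaled for each gene; points are libraries, horizontal lines are group means, and groups run from vector cells to week 4. CDH2 spans 135 to 644 CPM, CDH6, CDH11 and CDH13 sit highest in the groups from week 1 on, and CDH1 never exceeds 0.292 CPM.

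Between genes, levels were compared per kilobase of merged exons. CDH2 ranged from 28.3 CPM per kb at 20 hours to 122 at week 3 back on drug, and CDH19 from 5.77 at week 4 under continuous drug to 49.2 at week 1. These 2 genes were the highest members in every group. Of the summed length-scaled level of the 7 genes, CDH2 held from 64.0% (20 hours) to 83.3% (week 3 back on drug), while CDH19 went from 35.1% at 20 hours to 6.44% at week 4 under continuous drug. The sum itself was lowest at 20 hours (44.1 CPM per kb) and highest at week 1 (166). CDH11 made up 0.00628% of the sum in untreated BRAF-V600E cells and 3.23% at week 4 under continuous drug, and CDH6 reached 4.29% there.

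**Figure D2:**
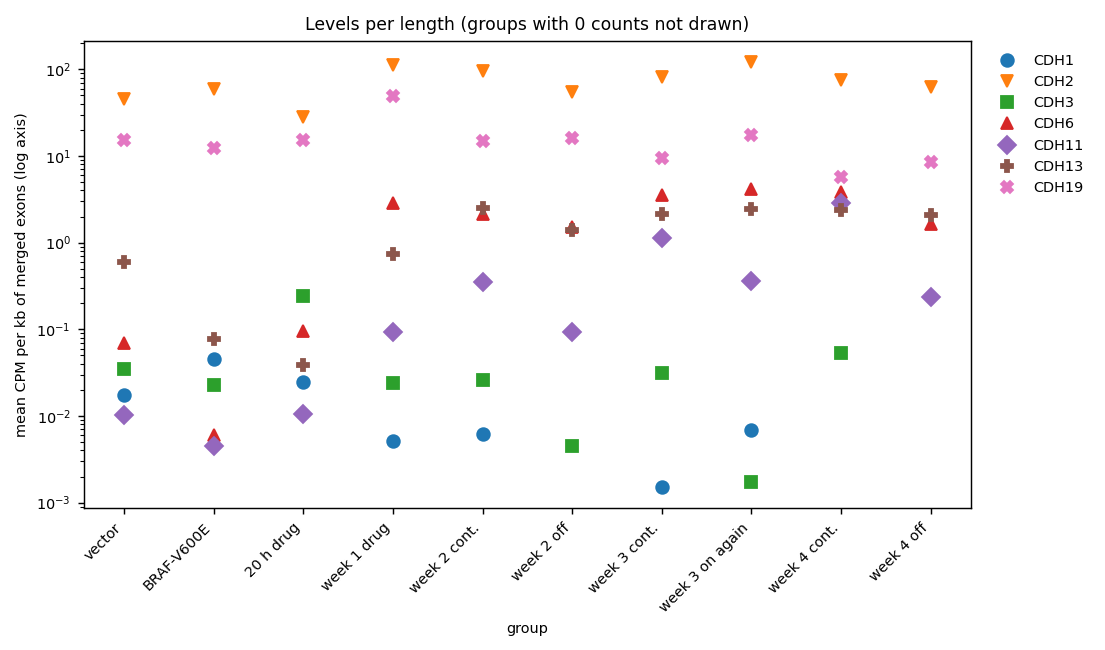
Mean level of the cadherins per group in CPM per kilobase of merged exons, on a log axis, so that genes of different length can be compared. CDH2 and CDH19 are the highest in all 10 groups, and CDH11 climbs to 2.90 CPM per kb at week 4 under continuous drug.

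CDH1, the E-cadherin gene, had 54 counts in all, spread over 16 of the 29 libraries, and failed the count filter, so it was not tested. Untreated BRAF-V600E cells held 7, 9 and 7 counts, vector cells 2, 5 and 2, and the 20-hour libraries 3, 5 and 3. Week 1 held 0, 1 and 2 counts. Both off-drug groups and week 4 under continuous drug held 0 counts in every library. The most that was seen was 0.279 ± 0.0134 CPM (SD, n = 3) in untreated BRAF-V600E cells, whose libraries overlapped no other group. The week 1 level was lower by a ratio of 8.48 (95% counting interval 2.56 to 44.1). Against the floor of 3 counts over a group, week 4 off drug was at least 8.54-fold lower than untreated cells, week 2 off drug at least 7.51-fold and week 4 under continuous drug at least 5.86-fold. These intervals and floors cover counting error only, since reads without molecular identifiers are not independent molecules.

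CDH2, the N-cadherin gene, was read at 231, 215 and 238 CPM in vector cells and at 300.3, 295 and 293 in untreated BRAF-V600E cells. It stood at 135, 146 and 139 CPM at 20 hours and at 579, 539 and 555 at week 1. The 20-hour libraries were the lowest of the 29. In the continuous arm it was at 489, 480.2 and 467 CPM at week 2, 418, 404 and 378 at week 3 and 371 and 368 at week 4, and no 2 of these groups overlapped. The intermittent arm moved between 2 levels: 265, 253 and 288 CPM off drug at week 2, 552, 611 and 644 back on drug at week 3, and 321, 310.4 and 289 off drug at week 4. Week 3 back on drug overlapped week 1, the next highest group, and week 4 off drug overlapped untreated BRAF-V600E cells.

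CDH3, the P-cadherin gene, gave 207 counts in all, in 20 libraries, and passed the filter only through the 20-hour group. That group held 38, 33 and 38 counts (1.59, 1.42 and 1.5 CPM), against 5, 7 and 0 in untreated BRAF-V600E cells and 9, 3 and 6 in vector cells. Week 1 held 9, 0 and 3 counts. No library outside the 20-hour group held more than 11 counts, which was 1 of the 10 and 11 at week 4 under continuous drug. At weeks 2 and 3 of continuous drug there were 4, 4 and 5 and then 4, 8 and 7 counts, while the intermittent arm had 2, 0 and 0 off drug, 0, 0 and 1 back on drug and 0 in all 3 libraries at week 4. Values between vector, untreated, week 1 and weeks 2 and 3 of continuous drug overlapped.

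CDH6, a type II cadherin first known from kidney, was all but absent in untreated BRAF-V600E cells, with 3, 2 and 1 counts (0.12, 0.0648 and 0.0379 CPM). Vector cells held 1.06, 0.601 and 0.921 CPM and the 20-hour libraries 1.25, 0.948 and 1.34, and these 2 groups overlapped. At week 1 it stood at 37.7, 33.5 and 34.8 CPM. Every library from week 1 on was at least 16.2 CPM, more than any vector or 20-hour library. The continuous arm held 27.7, 27.5 and 25.1 CPM at week 2, 50.6, 41.8 and 40.5 at week 3 and 46.7 and 48.5 at week 4. The intermittent arm held 18.4, 18.4 and 19.5 CPM off drug, 39.9, 58 and 55.3 back on drug and 20.6, 24.9 and 16.2 off drug again. The 2 off-drug groups overlapped each other and lay below every on-drug group from week 1 on, and the lowest library back on drug was the replicate that stood apart.

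CDH11, the OB-cadherin gene, rested on 5 counts in all in untreated BRAF-V600E cells (0.08, 0.0648 and 0.0379 CPM), and vector and 20-hour libraries were at 0.215 CPM or less. Week 1 held 1.39, 1.15 and 1.22 CPM. In the continuous arm the level was higher at each later week, with 4.98, 4.94 and 4.04 CPM at week 2, 15.7, 15 and 15.1 at week 3 and 40.0 and 37.5 at week 4, and these groups did not overlap. The intermittent arm stayed lower, at 1.05, 1.07 and 1.64 CPM off drug, 3.69, 5.18 and 5.78 back on drug and 3.3, 2.54 and 3.74 off drug again. The off-drug libraries of week 2 overlapped those of week 1. Fibroblasts also express CDH11, and the summed level of 7 fibroblast markers, all tested, moved with it on drug. This sum was 3.67 to 4.60 CPM in untreated BRAF-V600E cells, 251 to 263 at week 1 and 629 to 750 back on drug. At weeks 2, 3 and 4 of continuous drug it was 1064 to 1113, 1630 to 1714 and 2185 to 2431, at week 4 mostly COL1A1. Off drug the sum was 15.2 to 17.1 CPM at week 2 and 12.1 to 12.6 at week 4. Single markers did not all follow it. Back on drug against week 1, 3 of the 7 were higher and 2 lower (median log2 -0.14), where 16.6% of all genes were higher and 14.5% lower. At week 4 of continuous drug 7 of the 7 markers had risen against untreated cells, where 29.3% of all genes were higher and 26% lower. COL1A1 stood at 2179 CPM there, LUM at 51.3, COL3A1 at 39.8, COL1A2 at 27.2, PDGFRA at 5.67, FBLN1 at 3.25 and DCN at 1.63. The part of these markers in the CDH11 values was not tested.

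CDH19 was at 102, 95.6 and 116 CPM in vector cells, 90.9, 83.4 and 82 in untreated BRAF-V600E cells and 102, 114 and 103 at 20 hours. Week 1 stood out with 343, 319 and 353 CPM, above every other library, of which the highest held 136. By week 2 of continuous drug the gene was back at 100.3, 101 and 104 CPM, and it went on to 70.9, 66.5 and 59 at week 3 and to 40.7 and 38.5 at week 4, the lowest of all. The intermittent arm held 106, 99.7 and 129 CPM off drug, 98.3, 124 and 136 back on drug and 58.7, 56.3 and 61.7 off drug again. Libraries of vector cells, 20 hours, both arms at week 2 and week 3 back on drug lay between 95.6 and 136 CPM, and each of these groups overlapped its neighbour in level. The summed level of 4 Schwann cell markers, which melanoma cells also express, was highest at 20 hours (4700 to 5046 CPM) and lowest at week 4 of continuous drug (1035 to 1103), with 2313 to 2407 at week 1, and its part in the CDH19 values was not tested.

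CDH13, the lipid-anchored member, stood at 6.88, 6.33 and 6.87 CPM in vector cells but at 0.76, 0.908 and 0.909 in untreated BRAF-V600E cells and 0.586, 0.431 and 0.277 at 20 hours, 3 groups that did not overlap. It reached 8.32, 8.66 and 7.77 CPM at week 1. Under continuous drug it held 28.8, 27.7 and 27.4 CPM at week 2, 25.8, 23.4 and 23.2 at week 3 and 28.2 and 25.3 at week 4. Off drug at week 2 it was at 14.8, 17.4 and 14.3 CPM, back on drug at 24.3, 27.9 and 29 and off drug at week 4 at 22.9, 25 and 22.7. The week 2 off-drug group lay between week 1 and all later groups, and those later groups overlapped with their neighbours. Endothelial cells also express CDH13. The summed level of 5 endothelial markers, of which 4 were tested, was 8.24 to 10.005 CPM in vector cells, 8.92 to 10.8 in untreated BRAF-V600E cells and 0.388 to 1.004 at 20 hours. It was 1.10 to 1.48 CPM at week 1, 0.449 to 2.01 over weeks 2 to 4 on drug in both arms, 18.1 to 20.9 at week 2 off drug and 28.2 to 30.2 at week 4 off drug. Over the first withdrawal, where CDH13 was also higher, 3 of these markers rose and 0 fell. Of all genes 27.7% were higher and 26.8% lower there. KDR went from 0.360 to 14.2 CPM and PECAM1 from 0.0578 to 2.78. From week 1 to week 2 of continuous drug 0 markers rose and 0 fell (16% and 13.5% of all genes), while CDH13 went from 8.25 to 28.0 CPM. At the second withdrawal 3 rose and 0 fell (23.1% and 22.3% of all genes), while CDH13 went from 27.1 to 23.5 CPM. The part of these markers in the CDH13 values was not tested. CLDN5 held 9 counts in all libraries together.

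Changes were tested with edgeR's quasi-likelihood test in 1 fit of all libraries, with Benjamini-Hochberg adjustment over 20494 genes and a threshold of 0.05. Comparisons that share a group are not independent, and each is given with its own values. The first asked what added BRAF-V600E did without drug, where 17% of all genes passed, 7.04% as higher and 9.92% as lower. Of 6 tested cadherins, 1 was higher than in vector cells and 3 were lower. CDH2 rose 1.3-fold (log2 0.38 ± 0.07 SE, adjusted p = 8.54e-05). CDH13 fell by 2.95 log2 units (SE 0.15, adjusted p = 1.55e-15) and CDH6 by 3.49 (SE 0.52, adjusted p = 7.87e-06). CDH19 fell by 0.29 (adjusted p = 0.0421), and it no longer passed without vector replicate 1 (adjusted p = 0.0812) or 3 (0.234) or BRAF-V600E replicate 2 (0.136) or 3 (0.155), as it was with other scaling factors. CDH3 and CDH11 differed by -0.56 and -1.07 and did not pass.

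The first 20 hours of drug changed CDH2 and CDH13 downward and CDH6 and CDH19 upward, in a comparison where 53.7% of all genes passed, 28.4% as higher and 25.2% as lower. CDH2 fell by 1.08 log2 units (SE 0.07, adjusted p = 1.24e-14), and CDH13 fell by 1.00 (SE 0.25, adjusted p = 0.00196). CDH6 rose by 3.95 (SE 0.49, adjusted p = 5.5e-08), from 6 counts in untreated cells to a level like that of vector cells. CDH19 rose 1.24-fold (adjusted p = 0.00868), a call lost without BRAF-V600E replicate 2 (adjusted p = 0.0545) or 3 (0.0651). CDH11 did not pass (1.13, adjusted p = 0.195). CDH3 was at 1.504 ± 0.0839 CPM against 0.142 ± 0.124 (SD, n = 3 each). Because it was tested only through its high level at 20 hours, its call with the filter (log2 3.34) is a description, and in a fit without the filter the change was 3.31 ± 0.60 SE (adjusted p = 2.36e-07).

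After 7 days of drug 5 of 6 cadherins were higher than in untreated cells and 0 lower, where 54.2% of all genes passed, 27.5% as higher and 26.7% as lower. CDH6 rose most, by 8.84 log2 units (SE 0.28, adjusted p = 3.65e-22), followed by CDH11 (4.26 ± 0.43 SE, adjusted p = 6.54e-10) and CDH13 (3.25 ± 0.14 SE, adjusted p = 2.18e-18). Folds for CDH6 and CDH11 rest on 6 and 5 counts in untreated cells. CDH19 rose 3.96-fold and CDH2 1.88-fold. CDH3 stood at 0.149 ± 0.179 CPM (SD, n = 3) against 0.142 ± 0.124 and did not pass.

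Between 20 hours and 7 days 5 cadherins rose, where 57.7% of all genes passed, 28.6% as higher and 29.1% as lower. CDH2 turned from its lowest to nearly its highest level, a 3.99-fold rise (adjusted p = 4.08e-21). CDH13 also turned, rising 19.1-fold, and CDH6 rose 29.7-fold, CDH11 8.77-fold and CDH19 3.18-fold. CDH3 was lower at week 1, a description with the filter for the reason given above (log2 -3.42), and in the fit without the filter the change was -3.35 ± 0.60 SE (adjusted p = 1.28e-07). Mitochondrial genes held 14.9% to 16.4% of the counts in untreated libraries, 17.6% to 20.7% at 20 hours and 9.43% to 11.1% at week 1, and the part of this shift in the cadherin values was not tested.

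**Figure D3:**
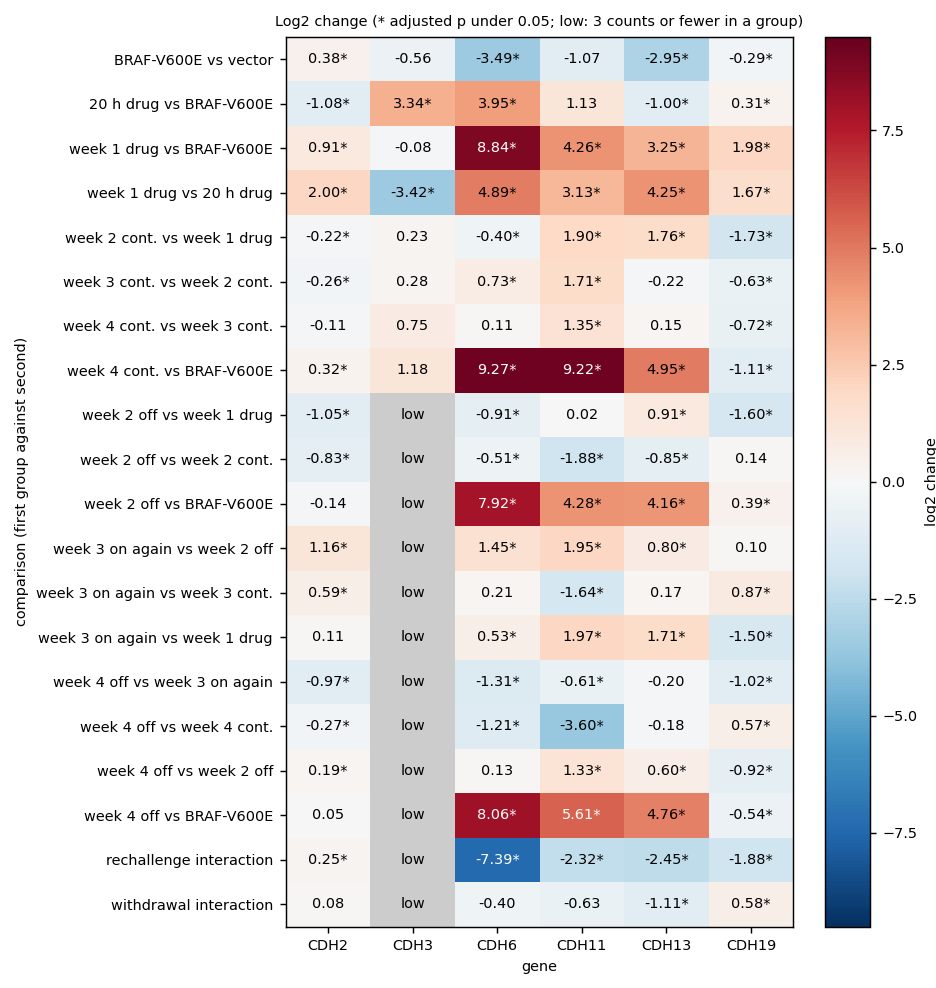
Log2 change of the 6 tested cadherins (x axis) in each of 20 comparisons (y axis, interactions last), coloured by direction and size, an asterisk where the adjusted p is under 0.05, and grey cells marked low where a compared group has 3 counts or fewer. CDH6 and CDH11 show the largest values against untreated cells, 9.27 and 9.22 at week 4 under continuous drug.

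Continuous drug was then followed week by week. From week 1 to week 2, 2 cadherins rose and 3 fell, where 29.5% of all genes passed, 16% as higher and 13.5% as lower. CDH11 rose 3.73-fold (log2 1.90 ± 0.20 SE, adjusted p = 5.87e-09) and CDH13 3.39-fold (1.76 ± 0.10 SE, adjusted p = 1.53e-14), while CDH19 fell by 1.73 log2 units (SE 0.10, adjusted p = 4.44e-14). CDH6 fell by 0.40 (adjusted p = 0.0162; 0.0568 without week 1 replicate 1) and CDH2 by 0.22 (adjusted p = 0.0111).

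From week 2 to week 3 21.3% of all genes passed, 10.5% as higher and 10.8% as lower. CDH11 rose 3.27-fold and CDH6 1.65-fold, and CDH19 and CDH2 fell by 0.63 and 0.26 on the log2 scale. The CDH2 call was lost when only the libraries of these groups were fitted (adjusted p = 0.062). CDH13 (-0.22, adjusted p = 0.0941) and CDH3 did not pass. From week 3 to week 4 6.93% of all genes passed, 3.44% as higher and 3.49% as lower. CDH11 rose 2.54-fold (log2 1.35 ± 0.15 SE, adjusted p = 7.98e-07) and CDH19 fell by 0.72 (SE 0.12, adjusted p = 0.000119), and the other 4 did not pass. CDH11 and CDH19 were called in each of the 3 weekly steps, in opposite directions.

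At week 4 under continuous drug 4 cadherins were higher than in untreated cells and 1 was lower, where 55.3% of all genes passed, 29.3% as higher and 26% as lower. CDH6 was higher by 9.27 log2 units (SE 0.28), CDH11 by 9.22 (SE 0.29), CDH13 by 4.95 (SE 0.14) and CDH2 by 0.32 (SE 0.07, adjusted p = 0.000451). CDH19 was lower by 2.16-fold (adjusted p = 1.54e-09), although it had been 3.96-fold higher at week 1. CDH3 did not pass (1.18, adjusted p = 0.213).

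After 7 days off drug following week 1, 3 cadherins were lower than at week 1 and 1 was higher. Of all genes 54.5% passed, 27.7% as higher and 26.8% as lower. CDH19 fell by 1.60 log2 units (SE 0.10, adjusted p = 1.67e-14), CDH2 by 1.05 (SE 0.07, adjusted p = 1.98e-14) and CDH6 by 0.91 (SE 0.13, adjusted p = 5.21e-07). CDH13 rose by 0.91 (SE 0.10, adjusted p = 4.21e-09). On continuous drug over the same week CDH19 fell by 1.73, CDH6 by 0.40 and CDH2 by 0.22, and CDH13 rose by 1.76. CDH11 was 1.25 ± 0.333 CPM off drug and 1.25 ± 0.121 at week 1 (SD, n = 3 each), and CDH3 held 2 counts against 12 (ratio 5.31, 95% counting interval 1.18 to 48.9), and neither passed. Without week 1 replicate 2 or week 2 off-drug replicate 1, CDH3 passed as lower (adjusted p = 0.0201 and 0.0257).

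Against continuous drug at the same week 4 cadherins were lower off drug and 0 higher, where 55.2% of all genes passed, 27.3% as higher and 27.9% as lower. CDH11 was lower by 3.68-fold (adjusted p = 1.96e-09), CDH13 by 1.8-fold (adjusted p = 4.45e-09), CDH2 by 1.78-fold (adjusted p = 4.53e-12) and CDH6 by 1.43-fold (adjusted p = 0.00133). CDH19 did not pass, with 112 ± 15.4 CPM off drug and 102 ± 1.79 on it (SD, n = 3 each, adjusted p = 0.259). CDH3, with 2 counts against 13 (ratio 6.5, 95% counting interval 1.47 to 59.3), did not pass (adjusted p = 0.0611) except without off-drug replicate 1 (0.0173) or without a count filter (0.0457). CDH13 after withdrawal was above its week 1 level but below that of cells kept on drug.

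Off-drug cells of week 2 were then set against untreated cells, where 60% of all genes passed, 31.2% as higher and 28.8% as lower. BRAF stood at 3232 CPM off drug against 895 in untreated cells, and DUSP6 at 658 against 421. The part of these differences in the cadherin values was not tested. Of the cadherins 4 were higher and 0 lower: CDH6 by 7.92 log2 units (SE 0.29), CDH11 by 4.28 (SE 0.43), CDH13 by 4.16 (SE 0.14) and CDH19 by 0.39 (SE 0.10, adjusted p = 0.00138). The CDH19 call was lost without week 2 off-drug replicate 3 (adjusted p = 0.0701). CDH2 was 269 ± 17.6 against 296 ± 3.75 CPM (SD, n = 3 each) and did not pass (adjusted p = 0.0691), but passed as lower without that same replicate (-0.24, adjusted p = 0.00507) and without the 2 libraries that stand apart, which are in neither group (-0.19, adjusted p = 0.0046). CDH3 held 2 counts against 12 and did not pass (adjusted p = 0.0783) except without untreated replicate 3 (0.0219) or off-drug replicate 1 (0.0206).

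After 7 days of drug given again 4 cadherins were higher than off drug and 0 lower. Of all genes 56.3% passed, 27.8% as higher and 28.5% as lower. CDH11 rose 3.86-fold (log2 1.95 ± 0.20 SE, adjusted p = 6.66e-10), CDH6 2.72-fold (1.45 ± 0.13 SE, adjusted p = 5.4e-11), CDH2 2.24-fold (1.16 ± 0.07 SE, adjusted p = 2.06e-15) and CDH13 1.74-fold (0.80 ± 0.09 SE, adjusted p = 1.29e-08). CDH19, which had risen 3.96-fold in the first week of drug, stood at 119.7 ± 19.5 against 112 ± 15.4 CPM (SD, n = 3 each) and did not pass (0.10, adjusted p = 0.399). Without week 3 back-on-drug replicate 1, its lowest library, the CDH19 change was 0.23 and passed (adjusted p = 0.0416).

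The second response to drug was tested against the first directly, by subtracting the first week's change (week 1 against untreated cells) from the change on renewed drug (week 3 against week 2 off drug). The 4 groups share no library, and 48.3% of all genes passed, 23.3% as higher and 25% as lower. Of the cadherins 1 was higher in this difference and 4 were lower. The second response was smaller for CDH6 (log2 difference -7.39 ± 0.35 SE, adjusted p = 4.97e-17), CDH13 (-2.45 ± 0.18 SE, adjusted p = 6.73e-13), CDH11 (-2.32 ± 0.55 SE, adjusted p = 0.000813) and CDH19 (-1.88 ± 0.14 SE, adjusted p = 1.47e-12). CDH6, CDH11 and CDH13 started the second exposure from levels 243-fold, 19.4-fold and 17.9-fold above untreated cells. For CDH2 the second response was larger by 0.25 (adjusted p = 0.0269), a call that did not hold in DESeq2 (adjusted p = 0.0512), with RLE factors (0.0727), without a count filter (0.167) or in a fit of the 4 groups alone (0.0739). It was also lost when untreated replicate 1 (adjusted p = 0.0724) or 2 (0.0522), week 1 replicate 2 (0.0674) or 3 (0.0636), week 2 off-drug replicate 1 (0.0536) or back-on-drug replicate 2 (0.0764) or 3 (0.1096) was left out. CDH3 did not pass.

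Cells back on drug at week 3 were also set against other on-drug cells. Against week 3 of continuous drug 28.4% of all genes passed, 14% as higher and 14.3% as lower. CDH2 was 1.51-fold higher (adjusted p = 2.72e-08), CDH19 1.83-fold higher (adjusted p = 4.33e-08) and CDH11 3.12-fold lower (adjusted p = 7.38e-10). CDH3 was lower on 1 count against 19 (ratio 19.0, 95% counting interval 3.02 to 790; adjusted p = 0.0151), a call lost without replicate 1 (adjusted p = 0.0586) or 2 (0.0573) of the group back on drug. CDH6 and CDH13 did not pass with all libraries but passed as higher without replicate 1 of that group (0.38, adjusted p = 0.0175, and 0.26, adjusted p = 0.0474).

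Against week 1, the first time that cells had been on drug for 7 days, 3 were higher and 2 lower, where 31.1% of all genes passed, 16.6% as higher and 14.5% as lower. CDH11 was 3.91-fold higher, CDH13 3.28-fold and CDH6 1.45-fold, and CDH19 was lower by 2.82-fold. CDH2 did not differ past the threshold (0.11 ± 0.07 SE, adjusted p = 0.216), but did without the 2 libraries that stand apart (0.17, adjusted p = 0.0478). The lower CDH3 call (1 count against 12, ratio 12.6, 95% counting interval 1.86 to 538, adjusted p = 0.0475) was lost without week 1 replicate 1 (adjusted p = 0.409) or 3 (0.0554) and without replicate 1 (0.123) or 2 (0.133) of the group back on drug.

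At the second withdrawal 4 cadherins fell and 0 rose, where 45.5% of all genes passed, 23.1% as higher and 22.3% as lower. CDH6 fell by 1.31 log2 units (SE 0.13, adjusted p = 4.9e-10), CDH19 by 1.02 (SE 0.10, adjusted p = 6.12e-10), CDH2 by 0.97 (SE 0.07, adjusted p = 1.78e-13) and CDH11 by 0.61 (SE 0.17, adjusted p = 0.00341). CDH13 did not pass (-0.20, adjusted p = 0.0722), though it did without replicate 1 of the group back on drug (-0.26, adjusted p = 0.0275).

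The 2 withdrawals were compared by their difference, for which 2 of 6 cadherins passed, 1 in each direction, and 17.1% of all genes passed, 7.6% as higher and 9.5% as lower. CDH13, which rose in the first withdrawal, differed by -1.11 (SE 0.13, adjusted p = 2.5e-07), and CDH19 fell less in the second (0.58 ± 0.14 SE, adjusted p = 0.00353). CDH6 (-0.40, adjusted p = 0.141) and CDH11 (-0.63, adjusted p = 0.142) did not pass, but without replicate 1 of the group back on drug they did (-0.53, adjusted p = 0.0225, and -0.78, adjusted p = 0.044), which brings the count to 4 of 6. CDH6 also passed without week 4 off-drug replicate 2 (-0.54, adjusted p = 0.0389). For CDH2 the 2 withdrawals differed by 0.08 ± 0.09 SE (adjusted p = 0.643).

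At week 4 the off-drug cells differed from those kept on drug in 5 cadherins, 1 higher and 4 lower, where 51.2% of all genes passed, 26.1% as higher and 25.1% as lower. CDH11 was lower by 12.1-fold (log2 -3.60 ± 0.17 SE, adjusted p = 2.22e-17), CDH6 by 2.31-fold (adjusted p = 1.25e-08) and CDH2 by 1.2-fold (adjusted p = 0.00289; 0.0565 without week 4 off-drug replicate 3). CDH3 had 0 counts off drug against 21, at least 10.2-fold lower (adjusted p = 0.000506). CDH19 was 1.49-fold higher (adjusted p = 0.000113). CDH13 did not pass, with 23.5 ± 1.26 CPM off drug (SD, n = 3) against 26.7 ± 2.05 (n = 2).

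Between the off-drug cells of week 4 and those of week 2 29% of all genes passed, 14.6% as higher and 14.4% as lower. CDH11 was 2.52-fold and CDH13 1.52-fold higher at week 4, and CDH19 was lower by 1.89-fold. CDH2 was 1.14-fold higher (adjusted p = 0.0289), a call that was lost without either of week 2 off-drug replicates 1 and 2 (adjusted p = 0.0888 and 0.0927) or week 4 off-drug replicates 1 and 2 (0.0963 and 0.0536), with RLE factors (0.0526), without a count filter (0.0879) or in a fit of these groups alone (0.0793). CDH6 did not pass (0.13 ± 0.13 SE, adjusted p = 0.491).

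Week 4 off drug was set against untreated cells as well, where 53.7% of all genes passed, 28.1% as higher and 25.7% as lower. It was higher in CDH6 by 8.06 log2 units (SE 0.29), in CDH11 by 5.61 (SE 0.36) and in CDH13 by 4.76 (SE 0.13). CDH19 was lower by 1.45-fold (adjusted p = 3.91e-05), and CDH3 had 0 counts against 12, at least 4.45-fold lower (adjusted p = 0.00724). CDH2 stood at 307 ± 16.5 against 296 ± 3.75 CPM (SD, n = 3 each) and did not pass (0.05 ± 0.07 SE). At week 4 off drug the most abundant member thus lay near its level in untreated BRAF-V600E cells. The 3 higher members were ones that untreated BRAF-V600E cells barely held. Vector cells, also without drug, held CDH13 at 6.69 CPM and CDH6 at 0.859. Week 4 off-drug cells differed from untreated BRAF-V600E cells in more than past drug, with BRAF at 3404 against 895 CPM and DUSP6 at 613 against 421. The part of these differences in the cadherin values was not tested.

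Across the 10 group means, on a log scale, Pearson's r was 0.88 for CDH6 and CDH11, 0.85 for CDH6 and CDH13 and 0.83 for CDH11 and CDH13. All 3 were lower in vector, untreated and 20-hour cells than in every later group, and these r values include that step. From week 1 on their orders differed. Week 1 held 35.3 CPM of CDH6 but the lowest CDH13 of these later groups (8.25). Week 2 of continuous drug held 26.8 CPM of CDH6 with the highest CDH13 (28.0). CDH2 had r of 0.69 with CDH13, 0.66 with CDH6 and 0.60 with CDH11. CDH19 had r of -0.01 with CDH6 and -0.42 with CDH11. CDH3 had r of -0.58 with both CDH2 and CDH13. These are descriptions over 10 groups of 1 cell line that share libraries and normalization. Among 10533 other genes with a mean of at least 5 CPM, those most like CDH6 were ABLIM3 (r = 0.99), COL5A3 and NRG1 (both 0.98). FHL1, SPOCK1 and TCHH were most like CDH11 (all 0.99), and COL13A1, PTX3 and KIAA2013 most like CDH13 (0.97 each). BANF1, DYNLT1 and B4GALT2 followed CDH2 (0.97, 0.97 and 0.96), and TEF, PHYKPL and ZDHHC7 had the highest values for CDH3 (0.99, 0.96 and 0.96). The CDH3 values rest mainly on the 20-hour group, which held 109 of its 207 counts, with at most 21 in any other group. They say little about the remaining groups. The nearest genes to CDH19 were less close, with CMIP at 0.93, LRRC57 at 0.91 and RNF121 at 0.90.

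Partners of the cadherins at the junction were followed through lists of genes. Of 12 catenins and linkers, which tie the cadherin tail to actin, 10 were tested, and at week 1 against untreated cells 4 were higher and 5 lower (median log2 -0.25, against 0 for all genes, of which 27.5% were higher and 26.7% lower). LIMA1, which binds actin and the junction, rose by 1.76 on the log2 scale and VCL (vinculin) by 0.99, while ARVCF fell by 1.35 and PKP4 by 0.51, both relatives of p120 catenin. CTNNB1 (β-catenin) was read at 647 CPM in untreated cells and 613 at week 1, when CDH2 had risen 1.88-fold. JUP (plakoglobin) went from 0.682 CPM at week 2 of continuous drug to 7.22 at week 3, a rise of 3.39 on the log2 scale (adjusted p = 2.09e-12), and to 13.9 at week 4. Off drug at week 4 JUP was lower by 3.36 than on drug, alongside the 3.60 of CDH11.

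Desmosomes hold a separate family of cadherins. Of 11 desmosomal genes 7 were tested, and against untreated cells 6 were higher and 1 lower at week 2 off drug, where 31.2% of all genes were higher and 28.8% lower. Against continuous drug at the same week 3 were higher and 3 lower, where 27.3% of all genes were higher and 27.9% lower. DSC1, DSC3 and PKP3 were low throughout, with highest library levels of 0.868, 1.27 and 1.39 CPM. DSC2, a desmosomal cadherin, went from 0.0975 CPM at week 1 to 7.88 off drug, a rise of 6.26 on the log2 scale, and DSP (desmoplakin) rose by 3.39. DSG2, a desmosomal cadherin that is more abundant in these cells (29.1 CPM at week 1 and 16.7 off drug), fell by 0.80, as did CDH2, CDH6 and CDH19 by the values above. When drug was given again DSC2 and DSP fell by 2.62 and 1.45, while DSG2 rose by 1.66 and CDH2 and CDH6 rose.

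Other cadherins of the classical families were mostly low. Of 12 listed 7 were tested, and at 20 hours 3 were higher and 1 lower than in untreated cells, a share close to the 53.7% of all genes that passed. CDH7, a type II member, rose by 4.22 on the log2 scale at 20 hours and stood at 0.338 CPM at week 1. CDH3 was likewise highest at 20 hours. CDH24 rose by 1.79 with added BRAF-V600E and fell by 1.82 at 20 hours. CDH4 stood highest in the off-drug groups, at 4.98 CPM at week 2 and 4.17 at week 4, against 0.946 CPM or less elsewhere. All 4 nectins, which start contacts that cadherins then join, were tested, and 3 were higher and 0 lower at week 1, where 54.2% of all genes passed and 27.5% were higher (NECTIN2 by 0.91 and NECTIN3 by 0.84 on the log2 scale).

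Among 9 proteases and γ-secretase parts that cut cadherins, 5 were higher and 2 lower at week 1, where 54.2% of all genes passed. ADAM10, which sheds N-cadherin, rose by 0.64 at 20 hours. FURIN, which processes cadherin precursors, rose by 1.79 at the first withdrawal and fell by 1.42 when drug was given again. Among 9 transcription factors that bind E-boxes, 5 were higher and 4 lower at week 1, against the same 54.2%. SNAI2 was 31.2 CPM in untreated cells, 311 at 20 hours and 375 at week 1, and ZEB1 fell by 3.84 at 20 hours. MITF, the melanocyte regulator, fell by 4.94 at week 1.

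**Figure D4:**
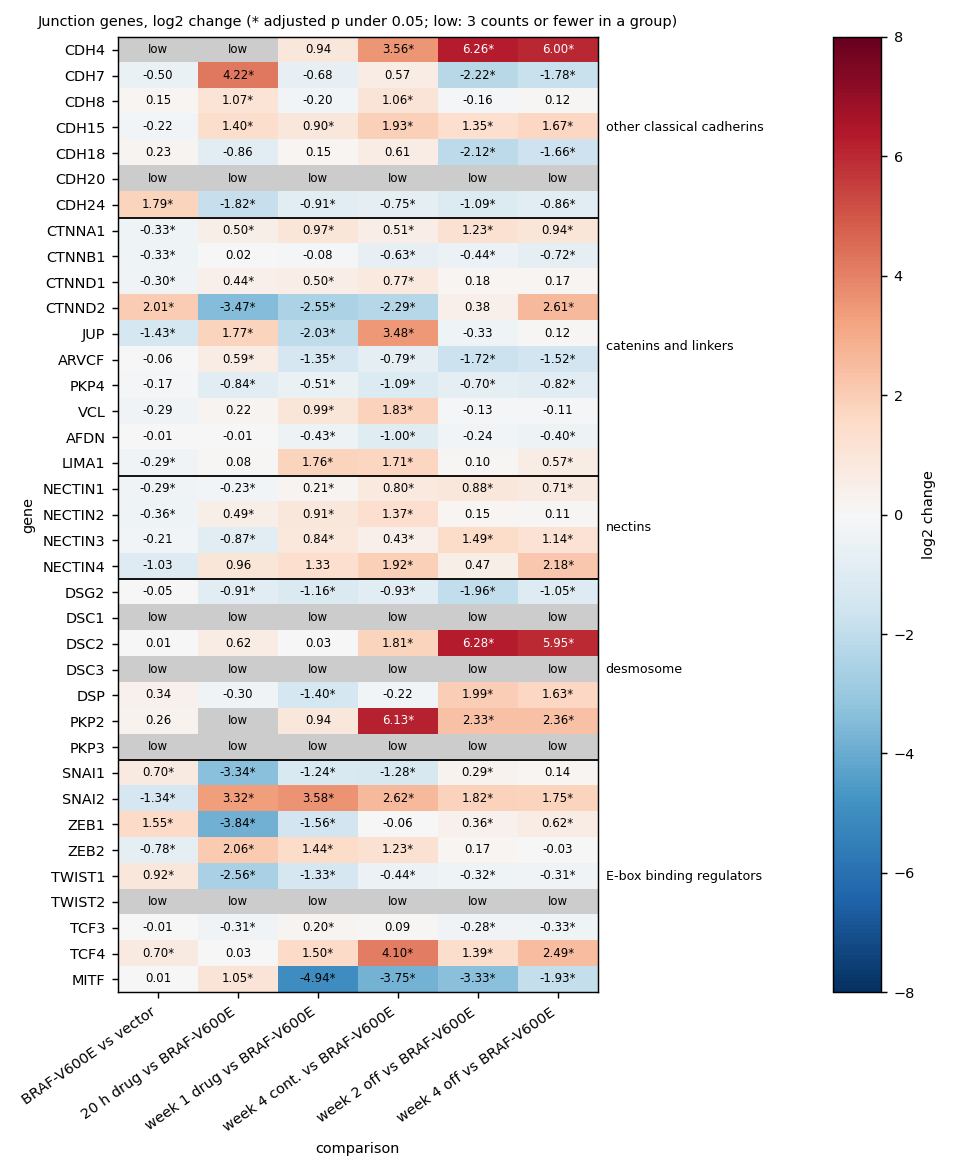
Log2 change of the listed junction genes (y axis, grouped by list) in 6 comparisons (x axis), coloured by direction and size, with an asterisk where the adjusted p is under 0.05 and grey cells marked low where a compared group has 3 counts or fewer. DSC2 is higher by 6.28 and 5.95 in the off-drug groups of weeks 2 and 4 than in untreated cells, and JUP by 3.48 at week 4 of continuous drug.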

How the data were processed

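Polyadenylated RNA of 29 WM239A libraries was analysed from whole-number read counts per gene, deposited without normalization by the authors. Per the submitters' processing notes, Trimmomatic 0.32, HISAT2 2.0.3, SAMtools 0.1.18, HTSeq 0.6.1 and GRCh38 were used; the annotation release and strand setting are not given in the sources used here. Groups came from the sample labels. Counts were fitted with edgeR 4.0.16 in R 4.3.3 (TMM, filterByExpr, quasi-likelihood, a term per group, Benjamini-Hochberg at 0.05 over 20494 genes), after tests on simulated data. CPM use TMM-scaled library sizes. A library stood apart when its chi-square per gene exceeded 20 against each other library of its group (at least 38.2 and 27.1 in the 2 found). Lengths and positions came from GENCODE 29. The named genes were all members, the 3 genes most like each tested member, and up to 2 rises and 2 falls per list and comparison at 5 CPM or more; CDH4, CTNNB1 and single marker genes were chosen after their values were seen. The members and lists were chosen with earlier results of these data known. Same-numbered libraries were not paired (see the closing section). Results were recomputed with RLE factors, DESeq2 1.42.0, the compared groups alone, no count filter, a replicate block, leaving out each library, and leaving out those standing apart. Groups with 0 counts were set to a floor of 3 counts. Figures used matplotlib 3.10.9.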

Additional observations from a re-analysis of the deposited data

Results flagged for a closer look

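The second exposure to drug was tested against the first, and for 5 cadherins the 2 responses differed past the threshold of edgeR's quasi-likelihood test (n = 3 libraries in each of 4 groups). The second response minus the first was -7.39 on the log2 scale for CDH6, -2.45 for CDH13, -2.32 for CDH11 and -1.88 for CDH19. CDH2 went the other way by 0.25, the least stable of these calls. CDH19 rose from 85.4 to 338 CPM in the first week of drug and stood at 112 and 119.7 CPM before and after the second exposure.

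The 2 withdrawals differed for CDH13 and CDH19. CDH13 differed by -1.11 on the log2 scale, going from 8.25 to 15.5 CPM in the first withdrawal and from 27.1 to 23.5 CPM in the second. CDH19 differed by 0.58, going from 338 to 112 CPM and then from 119.7 to 58.9 CPM.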

How the results depend on the processing

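Counts of cadherins called lay within 1.5 times the reported count under every alternative in 19 of 20 comparisons. The exception was the difference between the withdrawals, with 2 called and 4 without the libraries that stand apart, and 2 to 4 when each library was left out in turn. The log2 change of CDH11 from week 1 to week 2 off drug, reported as 0.02 and never called, was -0.00301 without a count filter, -0.0101 without the libraries that stand apart and -0.26 to 0.13 over single libraries left out. Other changes of sign, all uncalled, came with single libraries left out. CDH6 between the off-drug weeks ranged from -0.0116 to 0.30. CDH3 ranged from -1.09 to 0.00074 for added BRAF-V600E, -1.57 to 0.57 at week 1 against untreated cells, -0.41 to 1.69 from week 1 to 2 of continuous drug, -2.76 to 1.78 when drug was given again, -2.70 to 1.86 for the difference between exposures and -0.96 to 3.25 for that between withdrawals. The cause was not tested.

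The replicate block moved no count past that margin and ended 1 call, CDH3 at week 3 back on drug against week 1 (-3.21, adjusted p = 0.0568). The replicate numbers share nothing in the labels, and in 0 of the comparisons did every same-numbered pair correlate above 0.1 in its deviations. In 0 of 15 comparisons with 3 pairs did every library correlate best with its own number. Depth limits CDH1 and CDH3, which held 54 and 207 counts in all, and the untreated levels of CDH6 and CDH11, on 6 and 5 counts.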
